A study of Homo sapiens with 2 samples.

Results

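The cytosolic and mitochondrial heat shock families are 65 of the 16951 genes measured in FaDu cells. They were picked out by a rule on gene symbols, which was set with earlier results of these data known. The rule takes the HSP90A genes, the HSPA genes of the HSP70 and HSP110 families, and the mitochondrial chaperonin pair HSPD1 and HSPE1. It also takes the small heat shock protein genes HSPB and the J-domain genes DNAJA, DNAJB and DNAJC. HSPA5, DNAJB9, DNAJB11 and DNAJC3 of the endoplasmic reticulum (ER) are left out. FaDu is an established line from a squamous cell carcinoma of the human hypopharynx. The study sequenced total RNA from 2 libraries at day 2, 1 from FaDu cells with an shRNA (a short hairpin RNA that degrades a matching mRNA) against KIF2C, labelled shKIF2C, and 1 from FaDu cells labelled shControl, which the design text describes as carrying a blank vector. KIF2C encodes a motor protein that shortens microtubules, and the study asked what it does for proliferation and motility. Whether the knockdown cells were 1 clone or a mixed culture is not stated in the labels.

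The deposited values carry the codes D1 and C1, and no label ties a code to an shRNA. KIF2C itself had 3036 reads in library D1 and 783 in library C1, which goes against reading D1 as the knockdown and C1 as the control. The libraries are therefore named by code, each ratio is library D1 over library C1, and none is read as knockdown over control. The libraries held 18560024 estimated reads in D1 and 18189742 in C1. Of the 6 squamous epithelial markers, all were detected, with summed deposited TPM (transcripts per 1000000, a level corrected for gene length) of 3106 in D1 and 988 in C1. KRT5 (2061 in D1, 336 in C1) accounted for most of that difference, and 4 of the 6 lay above 0 on the log2 ratio scale, while EPCAM (325 TPM in D1, 382 in C1) and CDH1 (126 in D1, 160 in C1) lay below. The markers of other cells were low with exceptions: the summed TPM was 68.5 in D1 and 71.8 in C1 for 3 immune genes, nearly all of it CD68, and 7.40 in D1 and 29.2 in C1 for 3 endothelial genes, nearly all of it CDH5, while 2 fibroblast genes summed to 1.56 in D1 and 4.0 in C1. In these lists PTPRC (11 reads in D1, 15 in C1), CD3E (3 in D1, 7 in C1), PECAM1 (13 in D1, 12 in C1) and PDGFRB (1 in D1, 0 in C1) were at or near 0. The others had more reads: CD68 (1011 in D1, 1008 in C1), CDH5 (249 in D1, 1000 in C1), COL1A1 (82 in D1, 199 in C1) and VWF (29 in D1, 22 in C1). The part of the keratin and other marker differences in the results below was not tested.

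Heat shock proteins are molecular chaperones that hold, fold and refold other proteins. HSP70 proteins bind short hydrophobic stretches in a cycle driven by ATP. J-domain (DNAJ) proteins deliver clients to HSP70 and start its ATP hydrolysis, and HSP110 proteins release the nucleotide. HSP90 takes over late folding steps of kinases and steroid receptors, the chaperonin of mitochondria encloses a client in a chamber, and small heat shock proteins hold unfolded proteins without ATP. Heat and proteotoxic stress activate the transcription factor HSF1, which binds heat shock elements in the promoters of the inducible members. Tumour cells often carry high levels of several of these chaperones.

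The families made up 1.35% of all deposited TPM in library D1 and 1.28% in library C1. Of the 65 members, 55 reached 1 CPM (1 count per 1000000 after scaling) in at least 1 library, and 10 did not. Those 10 had between 0 and 16 reads, at most 0.81 TPM, and were a pseudogene, DNAJB7, DNAJB8, DNAJB13, DNAJC5G, HSPA6, HSPA12B, HSPB2, HSPB6 and HSPB9. HSPA6, the strictly heat-inducible HSP70 gene, had 9 reads in D1 and 3 in C1 (log2 ratio 1.53, 95% counting interval -0.33 to 4.20). HSPB8 passed through library C1 only and every other of the 55 passed in both libraries.

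**Figure D1:**
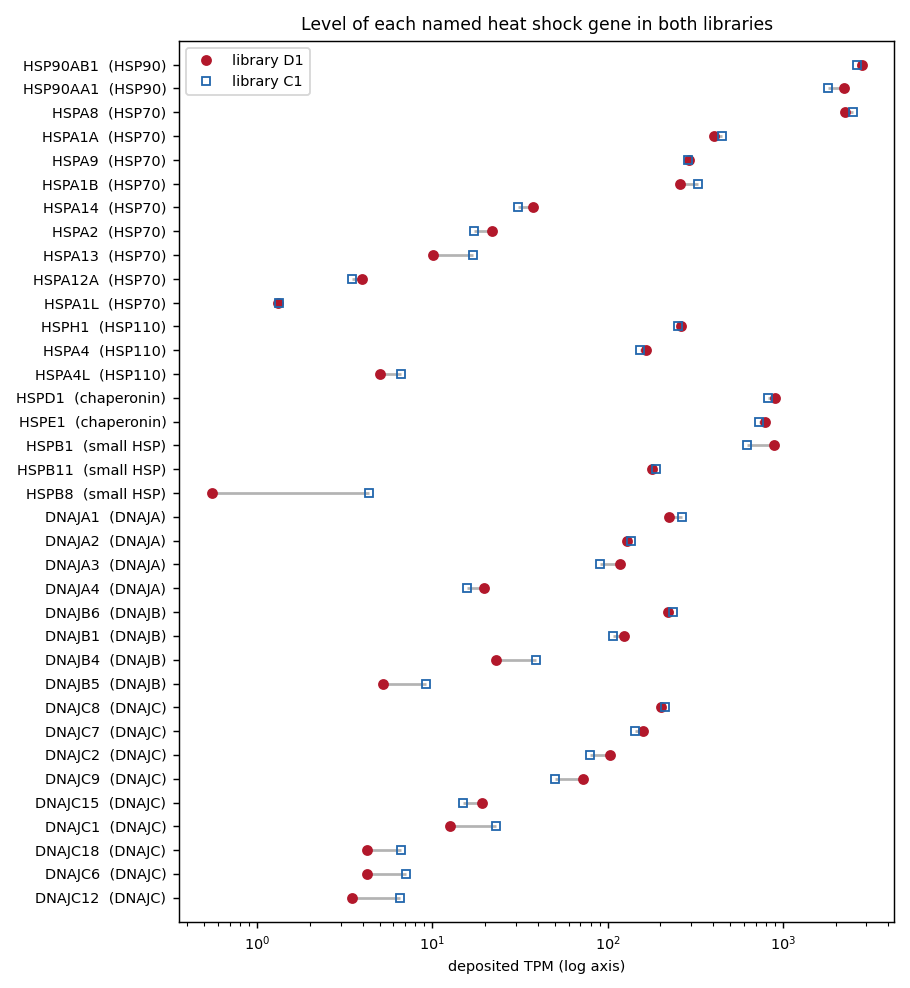
Deposited TPM (log axis) of the 36 heat shock genes named in the text, library D1 as filled circles and library C1 as open squares, grouped by family. The levels span from 0.55 TPM for HSPB8 in library D1 to 2828 TPM for HSP90AB1 in library D1, and for most genes the symbols lie close together.

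Most members differed by less than 1.5-fold between the libraries, as did most genes past the filter. Among the 55, 2 exceeded C1 by 1.5-fold or more in library D1 (3.64%), against 7.95% of the 13225 genes past the same filter, and 7 were at least 1.5-fold lower (12.7%), against 10.6% of genes. None was at least 2-fold higher, against 2.4% of genes, and 1 was at least 2-fold lower, against 4.54%. By deposited TPM none was 1.5-fold higher, against 5.07% of genes, and 11 were 1.5-fold lower (20.0%), against 15.6%; by deposited FPKM the shares were 0 and 20.0%, against 5.69% and 14.4%. The median log2 ratio was 0.11 over the 55 members and 0.01 over all genes past the filter. With 1 library per condition there is no test between conditions and no difference has a replicate check; the 95% intervals below are exact Clopper-Pearson intervals that cover counting error only.

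The side of 0 on which a gene lay depended on the scaling as well as on the gene. By TMM scaling (trimmed mean of M values, the scaling used for all ratios here unless said otherwise) 34 members lay above 0 and 21 below, against 51% and 49% of all genes. By the ratio of deposited TPM, which put the median of all genes at -0.14, 24 members lay above 0 and 31 below. The 5 scalings are TMM, plain library totals, DESeq2 size factors, deposited TPM and deposited FPKM. They are not independent measures. TMM, plain totals and DESeq2 size factors divide the same counts by different library sizes, which moves all genes by a constant. TPM and FPKM also differ from each other by a nearly constant amount. Relative to the median of all genes, the median of the members was 0.10 higher under each of the 5. For TMM, plain totals and DESeq2 size factors that agreement was fixed in advance. In all 5, 23 members lay above 0, 21 lay below and 11 changed side; over 13210 genes with a value in each, 34.1% lay above and 48.7% below in all 5.

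Ratios also went with abundance, and the members are on average abundant genes. Of the 20 members at 100 CPM or more, 16 lay above 0, against 64.8% of 2403 genes of that abundance, and their median log2 ratio was 0.19, against 0.12 for those genes. Of the 26 members from 10 to 100 CPM, 15 lay above 0, against 51.7% of genes, and the median was 0.11 for the members and 0.01 for the genes. Of the 9 members under 10 CPM, 3 lay above 0, against 40.4% of genes, and the median was -0.40 for the members and -0.13 for the genes. Abundant members leaned upward and scarce ones downward, as did all genes of those abundances.

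**Figure D2:**
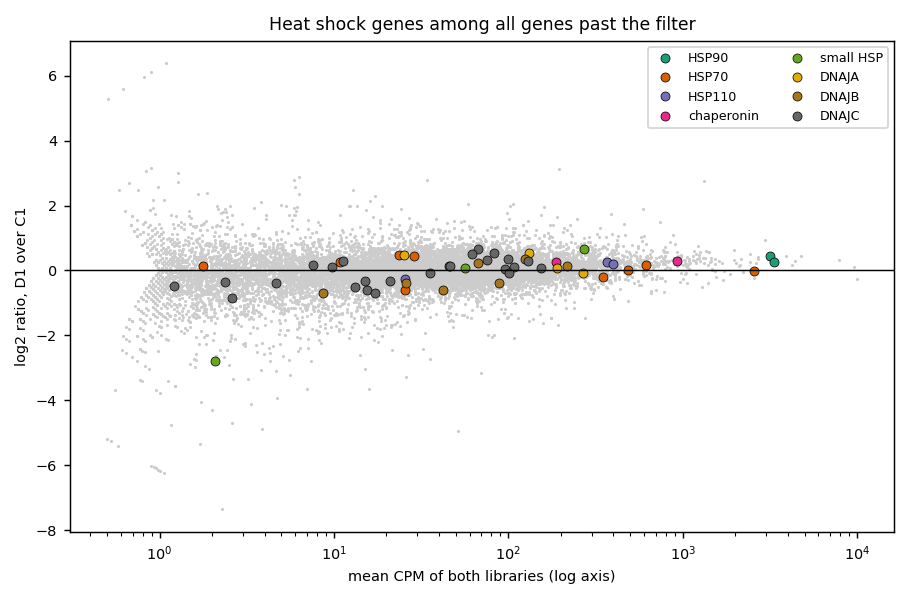
Log2 ratio of library D1 over library C1 against mean CPM (log axis); grey points are the 13225 genes past the filter and coloured points the 55 heat shock genes by family. The heat shock genes lie within the grey cloud, with HSPB8 at -2.78 the lowest of them.

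HSP90 was the family with the highest summed level, and both its genes were higher in library D1. HSP90AB1, the constitutive cytosolic HSP90 (NCBI gene 3326, chr6:44246194-44253883 in GRCh38.p14), had 2828 TPM in D1 and 2648 in C1 and ranked 38 among all genes in D1 and 41 in C1. Its 64527 reads in D1 and 57909 in C1 gave a log2 ratio of 0.25 (95% counting interval 0.23 to 0.26). HSP90AA1, the stress-inducible HSP90 (NCBI gene 3320, chr14:102080742-102139749), had 2246 TPM in D1 and 1812 in C1. Its 65032 reads in D1 and 50321 in C1 gave a log2 ratio of 0.46 (0.44 to 0.48). Both lay above 0 in all 5 scalings. HSP90AA1 exceeded HSP90AB1 in ratio by 0.21 on the log2 scale and their intervals did not overlap, so that the TPM of HSP90AA1 was 0.79 of that of HSP90AB1 in D1 and 0.68 in C1. The summed TPM of the family was 5074 in D1 and 4460 in C1.

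The HSP70 family was close to level, as was its most abundant member. HSPA8, the constitutive cytosolic HSP70, had 45477 reads in D1 and 48614 in C1, a log2 ratio of -0.01 (-0.02 to 0.01). Its level was 2257 TPM in D1 and 2516 in C1, which was 68.6% of the family's TPM in D1 and 68.9% in C1. The inducible genes HSPA1A and HSPA1B encode nearly the same protein, lie 12195 bases apart on chromosome 6 and share reads that the authors' counting had to split. HSPA1A had 8673 reads in D1 and 9184 in C1 (log2 ratio 0.01, or -0.11 by plain library totals), and HSPA1B had 5834 in D1 and 7079 in C1 (-0.19, -0.24 to -0.14). Their sum, which does not depend on the split, was 14507 reads in D1 and 16263 in C1 (-0.07, -0.11 to -0.04). The inducible pair thus stood at 0.29 of the TPM of HSPA8 in D1 and 0.31 in C1. By summed TPM the family had 3289 in D1 and 3649 in C1, whereas summed CPM gave a ratio of 1.01, so its direction turned with the scaling.

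Members of the HSP70 family outside that core went both ways. HSPA9, the HSP70 of the mitochondrial matrix, which pulls proteins through the inner membrane, had 292 TPM in D1 and 287 in C1 (log2 ratio 0.18, 0.14 to 0.21). HSPA14, which forms a complex with DNAJC2 on ribosomes, had 587 reads in D1 and 463 in C1 (0.43, 0.25 to 0.61). HSPA2, best known from spermatogenesis, had 488 reads in D1 and 370 in C1 (0.49, 0.29 to 0.69). These 3 lay above 0 in all 5 scalings. HSPA13, a microsome-associated member, was the lowest, with 360 reads in D1 and 580 in C1 (-0.60, -0.79 to -0.41), below 0 in all 5. The atypical HSPA12A (211 reads in D1, 188 in C1, ratio 0.26) and HSPA1L (33 in D1, 32 in C1, ratio 0.13) had intervals that held 0.

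The chaperonin of mitochondria was higher in library D1 in equal measure for both subunits. HSPD1, the chamber subunit, had 18152 reads in D1 and 15846 in C1 (log2 ratio 0.29, 0.26 to 0.32), and its level was 907 TPM in D1 and 826 in C1. HSPE1, the lid subunit, had 3646 reads in D1 and 3244 in C1 (0.26, 0.19 to 0.33), and its level was 788 TPM in D1 and 732 in C1. Their intervals overlapped, and both lay above 0 in all 5 scalings. HSPD1 and HSPE1 are transcribed in opposite directions on chromosome 2 from starts 105 bases apart, so they share 1 promoter region. TPM of HSPE1 was 0.87 of that of HSPD1 in D1 and 0.89 in C1.

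The HSP110 family, which exchanges nucleotide on HSP70, was split by abundance. HSPA4 had 7115 reads in D1 and 6295 in C1 (log2 ratio 0.27, 0.22 to 0.32), and HSPH1 had 7590 in D1 and 7058 in C1 (0.19, 0.15 to 0.24). The scarce HSPA4L had 415 reads in D1 and 532 in C1 (-0.27, -0.46 to -0.08). Each kept its side of 0 in all 5 scalings. In level, HSPH1 had 262 TPM in D1 and 252 in C1, while HSPA4L had 5.05 TPM in D1 and 6.66 in C1.

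The small heat shock proteins held the lowest ratio of any member past the filter and, after DNAJC9, the highest. HSPB1, the abundant small heat shock protein also called HSP27 (NCBI gene 3315, chr7:76302673-76304292), had 5922 reads in D1 and 3961 in C1, a log2 ratio of 0.67 (0.61 to 0.73). Its level was 894 TPM in D1 and 623 in C1, and its rank among all genes was 148 in D1 and 210 in C1. HSPB8 (NCBI gene 26353, chr12:119178931-119194746), which works with BAG3 in the autophagy of misfolded proteins, had 9 reads in D1 and 69 in C1, a log2 ratio of -2.78 (-4.04 to -1.84). It was the member that passed 2-fold, at 0.55 TPM in D1 and 4.36 in C1, a low level in both libraries. HSPB11, now known as the intraflagellar transport subunit IFT25 and not a stress protein by function, had 1040 reads in D1 and 1043 in C1 (0.09, -0.04 to 0.21), and its side of 0 changed with the scaling. HSPB2, HSPB6 and HSPB9 had 10 reads or fewer in each library.

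**Figure D3:**
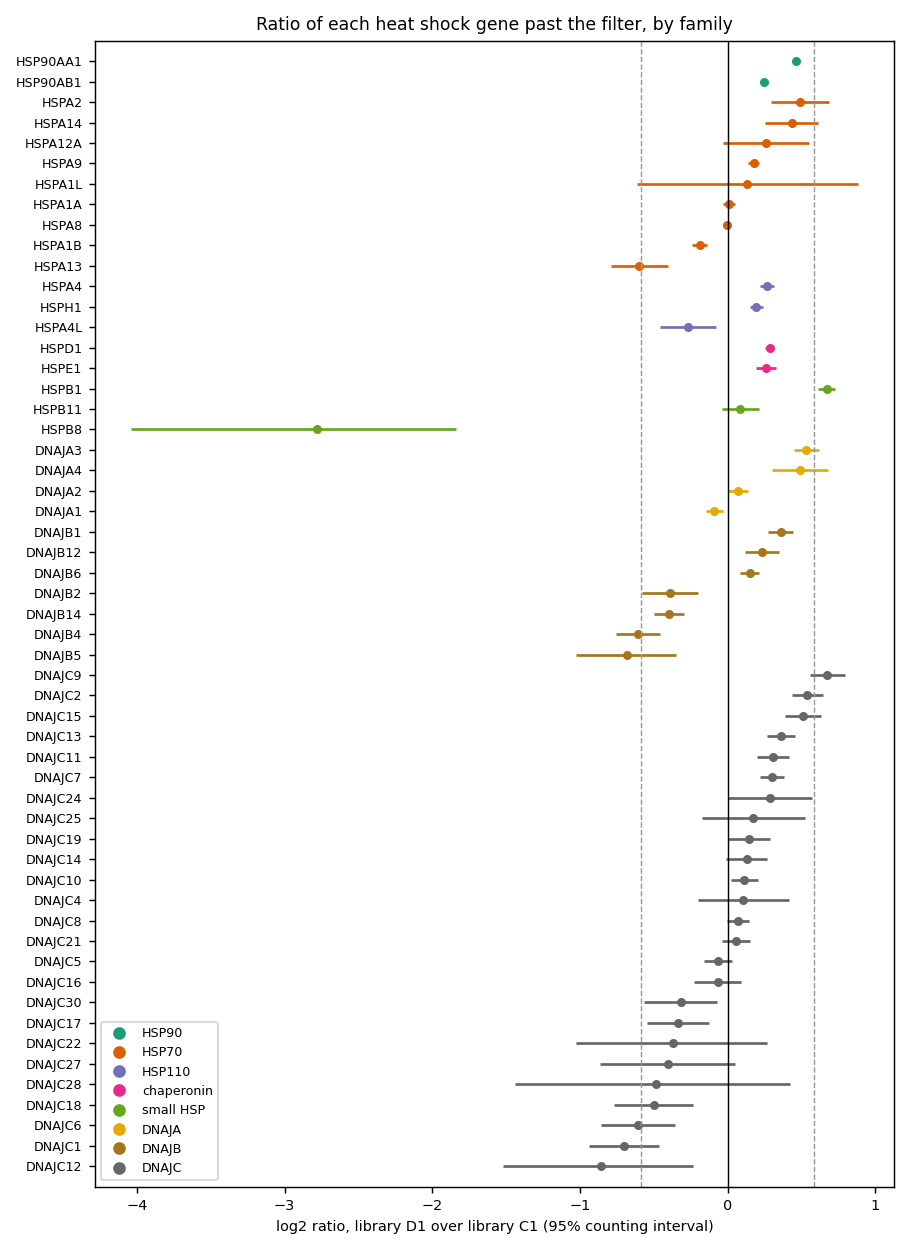
Log2 ratio of library D1 over library C1 for the 55 heat shock genes past the filter, coloured by family and ordered by ratio within it; bars are 95% counting intervals and dashed lines mark 1.5-fold in either direction. The HSP90 and chaperonin genes lie to the right of 0, the DNAJB and DNAJC genes spread to both sides, and HSPB8 stands at -2.78.

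Promoter sequences from RefSeq (GRCh38.p14, 250 bases before to 50 after 1 start per gene) were matched for 58 members. They were searched for heat shock elements because the inducible members of these families did not share 1 direction. The 3-unit element was written GAANNTTCNNGAA or, on the other strand, TTCNNGAANNTTC, and the 2-unit element GAANNTTC or TTCNNGAA, each of which reads the same on both strands; every 3-unit match also holds 2-unit matches. The 3-unit element was present in 4 of 58 member promoters (6.9%), against 0.49% of 27305 promoters in the table, and the 2-unit element in 13 (22.4%), against 13.7%. The 5 matches in these 4 promoters, 2 of them in HSPA8, with 8 bases on each side and the element in capitals, 5′ to 3′ on the gene's strand, were as follows.
HSPA8: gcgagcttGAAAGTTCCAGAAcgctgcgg
HSPA8: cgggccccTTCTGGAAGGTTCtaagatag
HSPA6: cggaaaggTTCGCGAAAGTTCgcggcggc
DNAJA1: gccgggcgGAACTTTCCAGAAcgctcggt
DNAJB6: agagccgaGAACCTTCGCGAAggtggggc
They lie at chr11:123062346-123062374 and chr11:123062171-123062199 (minus strand), chr1:161524458-161524486 (plus), chr9:33025268-33025296 (plus) and chr7:157336865-157336893 (plus). The log2 ratios of the genes past the filter among them were -0.01 for HSPA8, -0.09 for DNAJA1 and 0.15 for DNAJB6, the last turning to -0.094 by deposited TPM. A match is a run of letters and not evidence of HSF1 binding, and the absence of one says only that these letters are not in the window.

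HSPB6 and DNAJB7, both under the filter, and DNAJC15 (log2 ratio 0.51) held 2-unit matches that are not shown. The 2-unit matches of 6 further members, shown because they include the inducible pair, HSPB1 and HSPB8, are given next.
HSPA1A: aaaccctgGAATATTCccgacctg
HSPA1B: aacccctgGAATATTCccgacctg
HSPA1L: caggtcggGAATATTCcagggttt
HSPA9: ttggaggtTTCCAGAAgcgctgcc
HSPB1: taacgagaGAAGGTTCcagatgag
HSPB8: tcacctccGAATATTCctgtgaca
HSPA1A and HSPA1L are transcribed away from each other from starts 260 bases apart, and both windows are chr6:31815429-31815452, read on the plus strand for HSPA1A and on the minus strand for HSPA1L. The HSPA1B window is chr6:31827625-31827648 (plus), and of the 300 promoter bases of HSPA1A, 277 aligned to an identical base of HSPA1B. The HSPA9 window is chr5:138575390-138575413 (minus), that of HSPB1 chr7:76302483-76302506 (plus) and that of HSPB8 chr12:119178835-119178858 (plus). Over members past the filter with a promoter, the 10 with a 2-unit match had a median log2 ratio of 0.07 (range -2.78 to 0.67), and the 41 without had 0.11 (range -0.86 to 0.67). The stress-inducible HSP90AA1 (0.46) and DNAJB1 (0.36) are among those without. Their windows, chr14:102139700-102139999 and chr19:14529222-14529521, cover 1 start each, and any other start of a gene was not searched. The split into 10 and 41 holds for these windows only.

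The whole promoter windows of HSPB1 and HSPB8, which belong to 1 family and had ratios 3.45 apart on the log2 scale, are given with their element matches in capitals.
HSPB1: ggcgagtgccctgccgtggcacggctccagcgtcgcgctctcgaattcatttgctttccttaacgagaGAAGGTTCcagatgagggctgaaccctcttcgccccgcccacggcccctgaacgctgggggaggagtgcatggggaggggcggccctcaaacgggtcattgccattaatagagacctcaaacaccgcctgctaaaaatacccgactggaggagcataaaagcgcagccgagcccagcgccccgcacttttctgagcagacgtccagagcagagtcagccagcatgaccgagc
HSPB8: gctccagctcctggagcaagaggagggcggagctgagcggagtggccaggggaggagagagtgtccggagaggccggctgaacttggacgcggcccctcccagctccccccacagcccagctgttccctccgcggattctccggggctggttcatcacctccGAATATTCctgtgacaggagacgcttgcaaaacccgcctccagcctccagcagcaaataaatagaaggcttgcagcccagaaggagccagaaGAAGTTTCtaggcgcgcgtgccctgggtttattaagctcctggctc
They span chr7:76302423-76302722 and chr12:119178681-119178980, both on the plus strand. HSPB1 holds 1 match, which begins 182 bases before the start, and HSPB8 holds 2 matches, the first of which begins 88 bases before it. These genes were chosen for their ratios, and no direction is read from their elements.

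J-domain genes of class A, which resemble bacterial DnaJ most closely, had 3 of 4 members above 0, against 51% of all genes. Their median log2 ratio was 0.28, or 0.12 by deposited TPM. DNAJA3, the mitochondrial member, had 2753 reads in D1 and 2026 in C1 (log2 ratio 0.53, 0.45 to 0.62), and DNAJA4 had 528 in D1 and 400 in C1 (0.49, 0.30 to 0.68). DNAJA1, an abundant cytosolic partner of HSPA8, had 4633 in D1 and 5257 in C1 (-0.09, -0.15 to -0.04). DNAJA2 had 3469 in D1 and 3519 in C1, with a ratio of 0.07 that turned to -0.082 by deposited TPM. The other 3 kept their sides in all 5 scalings. DNAJA1 had the highest level of any J-domain gene, at 224 TPM in D1 and 265 in C1.

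Class B, with 7 of 11 members past the filter, had members on both sides and a median log2 ratio of -0.39, or -0.12 over its members with whole counts. DNAJB1, the stress-inducible HSP40, had 2486 reads in D1 and 2065 in C1 (log2 ratio 0.36, 0.27 to 0.44). DNAJB6, which keeps polyglutamine proteins from aggregating, had 4072 in D1 and 3911 in C1 (0.15, 0.08 to 0.21). DNAJB4 had 594 in D1 and 964 in C1 (-0.61, -0.76 to -0.46), and DNAJB5 had 118 in D1 and 202 in C1 (-0.68, -1.03 to -0.35). The inducible DNAJB1 and its relative DNAJB4 differed in ratio by 0.97 on the log2 scale with intervals that did not overlap. TPM of DNAJB1 was 0.56 of that of DNAJA1 in D1 and 0.41 in C1. The remaining 3 members past the filter had ratios from -0.40 to 0.23.

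Class C, the most diverse class, had 25 of 26 members past the filter, with a median log2 ratio of 0.07, or -0.067 by deposited TPM. Of the 25, 14 lay above 0 (56.0%) and 11 below, near the 51% and 49% of all genes. In all 5 scalings 8 lay above (32.0%) and 11 below (44.0%), against 34.1% and 48.7% of all genes. DNAJC9, a chaperone of histones H3 and H4, had 1472 reads in D1 and 982 in C1, the highest ratio of the 55 members past the filter (0.67, 0.56 to 0.79). DNAJC2, the ribosome-bound partner of HSPA14, had 1738 in D1 and 1273 in C1 (0.54, 0.43 to 0.64). DNAJC15, of the inner mitochondrial membrane, had 1303 in D1 and 973 in C1 (0.51, 0.39 to 0.63). DNAJC7, which binds both HSP70 and HSP90, had 2547 in D1 and 2201 in C1 (0.30, 0.22 to 0.38). All of these lay above 0 in each of the 5 scalings, whereas DNAJC8, a factor tied to splicing, had 2805 in D1 and 2843 in C1 (0.07) and changed side.

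The named class C genes lower in library D1 were scarce in both libraries. DNAJC12, which assists the aromatic amino acid hydroxylases, had 33 reads in D1 and 64 in C1 (log2 ratio -0.86, -1.52 to -0.24). DNAJC1, an ER membrane protein, had 234 in D1 and 405 in C1 (-0.70, -0.94 to -0.47). DNAJC6, the auxilin that uncoats clathrin vesicles, had 219 in D1 and 355 in C1 (-0.61, -0.86 to -0.36). DNAJC18, also of the ER membrane, had 195 in D1 and 294 in C1 (-0.50, -0.77 to -0.24). All 4 had under 24 TPM in both libraries, as did DNAJC15 (19.32 in D1, 15.05 in C1), which was higher in D1. The 16 other class C members past the filter had ratios from -0.48 to 0.36, and the intervals of 9 of them held 0.

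**Figure D4:**
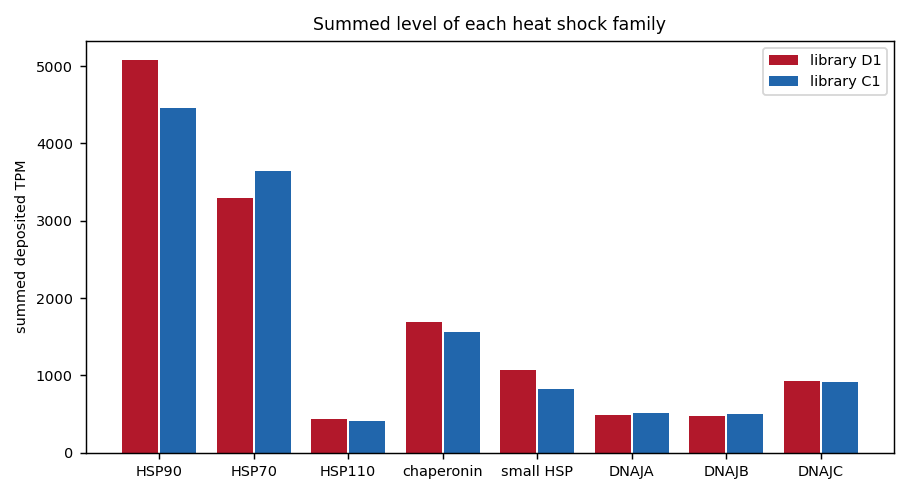
Summed deposited TPM of each heat shock family, library D1 to the left of library C1 in each pair, from 1 library each. HSP90 (5074 in D1, 4460 in C1) and small HSP (1075 in D1, 819 in C1) were higher in D1 on this scale and HSP70 (3289 in D1, 3649 in C1) was lower.

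By place in the cell, the mitochondrial and ER members stood as follows, beside 51% of all genes above 0 and 34.1% above in all 5 scalings. Of 9 mitochondrial members, 7 lay above 0 with a median log2 ratio of 0.26, and 6 did so in all 5 scalings; their summed level was 2257 TPM in D1 and 2083 in C1. Of 9 members that sit in or at the ER and that the symbols still include, 4 lay above 0 and 5 below with a median of -0.07, and their summed level was 155 TPM in D1 and 187 in C1. Counting intervals lay above 0 for 25 of the 55 members, against 30.9% of genes, and below 0 for 15, against 27.2%. These shares also went with abundance. At 100 CPM or more 14 of 20 members had intervals above 0 and 2 below, against 55.6% and 26.3% of genes. From 10 to 100 CPM 11 of 26 lay above and 10 below, against 32.2% and 29.4%. Under 10 CPM 0 of 9 lay above and 3 below, against 11.7% and 23.6%. For the mitochondrial members 7 of 9 intervals lay above 0 and 1 below, and for the ER members 2 lay above and 4 below. The mitochondrial and ER counts were not set against genes of like abundance.

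The partners of these chaperones were read from 7 lists of other folding genes. Beside each count stand the shares of all genes, 51% above 0 and 34.1% above in all 5 scalings, and 64.8% above 0 at 100 CPM or more. Of 14 HSP90 co-chaperones, 11 lay above 0 (median log2 ratio 0.25), and 8 did so in all 5 scalings. FKBP4, an immunophilin of steroid receptor complexes, had 9426 reads in D1 and 6001 in C1 (0.74, 0.69 to 0.79), CHORDC1 had 2673 in D1 and 1808 in C1 (0.65), and PTGES3, the p23 co-chaperone, had 12672 in D1 and 10275 in C1 (0.39). Of 8 HSP70 co-chaperones, 6 lay above 0 (median 0.20), 4 of them in all 5 scalings. The nucleotide exchange factors BAG2 and BAG3 had ratios of 0.44 and 0.38 and ST13, which links HSP70 to HSP90, 0.32. BAG3, the partner of HSPB8, thus had 3090 reads in D1 and 2535 in C1, on the other side of 0 from HSPB8.

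The list of mitochondrial folding, import motor and protease genes had 13 of 15 members above 0 (median log2 ratio 0.10), but 5 in all 5 scalings, a share like the 34.1% of all genes, and the median turned to -0.023 by deposited TPM. Its largest ratios were 0.42 for TIMM44, which anchors HSPA9 at the import channel, 0.40 for the protease HTRA2 and 0.33 for GRPEL2, a nucleotide exchange factor of HSPA9. In the HSF list 1 of 4 genes lay above 0 (median -0.13): HSF1, the master regulator of the heat shock response, had 1955 reads in D1 and 1868 in C1 (0.16, 0.06 to 0.25), HSF2 had -0.14 and HSBP1, which binds HSF1, -0.17. The ratio of HSF1 turned negative under deposited TPM (104 in D1, 105 in C1). Of 5 other heat-inducible genes past the filter, 2 lay above 0 (median -0.19), with 0.32 for the mitochondrial ribosomal gene MRPL18, 0.30 for the ubiquitin gene UBB and -0.30 for DEDD2. A list of 13 members of the families themselves, made for heat-inducible genes, includes HSPA8 and HSP90AB1, named constitutive above. Of these 13, 12 passed the filter, and 8 of the 12 lay above 0, with a median of 0.22. The shares above 0 were 51% of all genes and 64.8% at 100 CPM or more. In all 5 scalings 7 lay above and 4 below, against 34.1% and 48.7% of all genes.

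A pair of related folding systems frames these values. All 8 subunit genes of the cytosolic chaperonin CCT lay above 0 (median log2 ratio 0.29), 7 of them in all 5 scalings, against 64.8% of genes above 0 at 100 CPM or more, where all 8 lie, and they were led by CCT6A at 1.45, TCP1 at 0.40 and CCT5 at 0.38. All 8 ER chaperone genes lay below 0 in all 5 scalings (median -0.33), against 48.7% of all genes, led by DNAJB9 at -1.44, DNAJC3 at -0.51 and HSP90B1, the HSP90 of the ER, at -0.37. HSP90B1 had 21575 reads in D1 and 29757 in C1, on the other side of 0 from its cytosolic relatives HSP90AA1 and HSP90AB1. The difference between the systems has no replicate check, and each system's genes share the same 2 libraries.

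**Figure D5:**
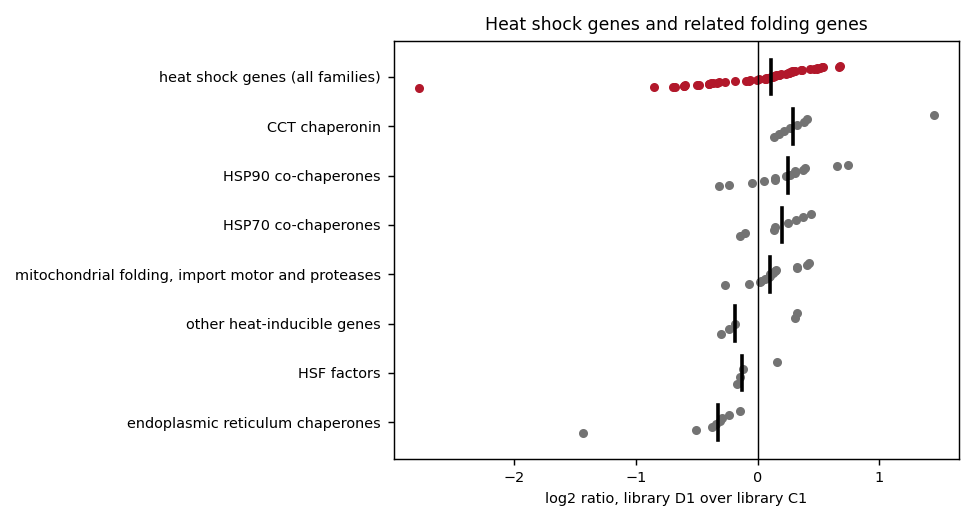
Log2 ratio of library D1 over library C1 for the 55 heat shock genes (red) and the genes past the filter in 7 lists of related folding genes (grey); each point is a gene and each vertical bar the median of its row. The 8 CCT genes all lie to the right of 0 and the 8 ER chaperone genes to the left, with the heat shock genes on both sides.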

How the data were processed

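Total RNA of FaDu cells was sequenced in 2 libraries, 1 per condition. The submitters' processing notes name Bowtie2, RSEM and hg38; tool versions, annotation and strand: not given in the sources used here. Estimated counts are the authors' own, unnormalized per the file headers; 48.2% of values in library D1 and 48.9% in C1 were not whole (tolerance 0.005), as when reads are shared between similar genes. The authors also deposited TPM values and FPKM values, named so in the file headers. The codes of the deposited columns match no label, so the assignment of C1 to control and D1 to knockdown is provisional and no value in the text rests on it.

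Counts were rounded and scaled by TMM over all 16951 genes with edgeR 4.0.16 in R 4.3.3 (factors 0.960 for D1 and 1.04 for C1). Log2 ratios used 0.5 added counts, and 95% intervals were exact Clopper-Pearson intervals of the D1 share (scipy 1.17.1), covering counting error only. Genes at 1 CPM (17.8 reads in D1, 19.0 in C1) in at least 1 library were kept. A count of 0 allows up to 3 reads, and no fold is given against it. No test between conditions was possible and no p-value is given. The procedure was tested on simulated whole counts with known folds and counting error only. Spread between replicate libraries and reads split between similar genes were not simulated. All 65 members matched RefSeq of GRCh38.p14 by NCBI gene ID; coordinates and promoters are from there. HSP70, HSP90 and chaperonin genes have near-identical relatives or pseudogenes, so their split of reads is uncertain.

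Named genes were all HSP members at 1 CPM or more, DNAJ members at least 1.4-fold different or among the 2 with the highest mean TPM of a class, and from each list the 3 with the largest absolute ratio at 5 CPM or more. HSPA6 and the other members under the filter are named for completeness, after their values were seen. Members and lists were chosen with earlier results of these data known. Alternatives were plain library totals, DESeq2 1.42.0 size factors, deposited TPM and FPKM ratios, 5 added counts, no filter, a 10 CPM filter and genes with whole counts only.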

Additional observations from a re-analysis of the deposited data

How the results depend on the processing

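The median log2 ratio of the heat shock members, 0.11, turned to -0.039 with the ratio of deposited TPM, -0.0066 with plain library totals and -0.0054 with deposited FPKM. The count of members at least 1.5-fold higher in library D1, 2 in the setting reported, was 0 with plain library totals, with deposited TPM and with deposited FPKM, 6 with no filter and 1 with only whole-count genes. The count at least 1.5-fold lower, 7 as reported, was 11 with deposited TPM, 11 with deposited FPKM and 4 with only whole-count genes. Family medians moved too: small HSP was 0.09 as reported, -0.084 with TPM and -1.06 with whole-count genes, and DNAJB -0.39 as reported and -0.12 with whole-count genes; by deposited TPM the median was 0.12 for the chaperonin pair, 0.20 for HSP90 and 0.059 for HSP110. DNAJA2 turned to -0.050 with plain totals, -0.082 with TPM and -0.050 with FPKM, and DNAJB6 to -0.094 with TPM and -0.062 with FPKM. By construction plain totals and DESeq2 size factors shift all genes together, and the filter and whole-count settings change which genes are counted. The median log2 ratio of all genes past the filter was 0.01 as reported. It was -0.11 with plain totals, -0.14 with TPM and -0.11 with FPKM. For TPM and FPKM the cause was not tested. DESeq2 size factors and 5 added counts moved no result past its limits. No paired analysis was possible because each condition has 1 library, which also leaves no replicate to leave out.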
